A study of Mus musculus with 39 samples.

Results

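TGF-beta and BMP signals reach the nucleus through receptor kinases and Smad proteins, and cells answer with a small set of genes that report the signal or dampen it. Tgfb1 is a ligand. Chordin-like 1 (Chrdl1) is a secreted antagonist that binds BMP ligands, the inhibitory Smads Smad6 and Smad7 block the receptors, Pmepa1 is a membrane protein that TGF-beta induces and that restrains its Smads, and Id1 to Id4 are inhibitors of basic helix-loop-helix transcription factors and standard targets of BMP. In adipose tissue these pathways act on precursor commitment, on the vessel wall and on the extracellular matrix.

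These 9 genes were read on 39 one-colour Agilent arrays of total RNA from subcutaneous adipose tissue of C57BL/6J mice, out of 29411 gene names on the array. They were chosen on measured values, namely Pmepa1 for late high-fat feeding, Id3 for late against early time points and Chrdl1 for feeding with KAL-1, so those contrasts are described here without a test. Mice were weaned at 3 to 4 weeks of age and placed in 5 groups of 30 animals. LFC mice ate a diet with 10% of calories from fat, and HFC mice ate a diet with 60% of calories from fat and more sucrose. HF5, HF20 and HF75 mice ate the HFC diet with 5, 20 or 75 µg of the botanical formulation KAL-1. The sex of the mice and whether an array held 1 mouse or a pool are not given in the sources used here, so p-values measure only the spread between these arrays. There were 10 LFC, 11 HFC and 6 arrays for each KAL-1 dose, 1 array for each diet and time point. The early time points were Day 6, Day 10, Day 14 and Week 0, and the late ones were Week 3, 6, 9, 12, 15 and 18, for which alone KAL-1 arrays exist. By the study's methods weeks were counted from Day 14, so Day 14 and Week 0 are the same time run again, and the 4 early pairs cover 3 times. An HFC array of Day 1 has no LFC partner.

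Levels are log2 intensities relative to the 75th percentile of the same array, so a level of 0 is that percentile and a difference of 1 is a doubling. Levels of different probes cannot be set against each other. All 9 genes were well above background and unsaturated on all 39 arrays. The outlier flag removed the brighter Pmepa1 probe on the HFC array of Day 6, which leaves 3 early pairs for that gene. The 5 adipocyte markers (Adipoq, Plin1, Fabp4, Cidec and Lipe) were well above background on all 39 arrays. In whole tissue, fewer cells of a type and less RNA per cell cannot be told apart.

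Several arrays stood apart. The HF75 array of Week 3 and the HFC array of Day 1 had the lowest median correlation with the other arrays, 0.857 and 0.862. The HF20 array of Week 15 had 4936 outlier spots, against 17 to 474 on the others, and a median correlation of 0.905. The LFC array of Week 18 was the dimmest, with a 75th percentile of 107.9 intensity units against 204.0 to 1285 on the others, and a median correlation of 0.896. On the LFC array of Week 3 the mean of 5 lymphocyte markers was 1.08, against -5.86 to -0.68 on the other 38. On 6 arrays (HFC Day 1, LFC Day 6, HFC Day 6, HFC Day 10, LFC Week 12 and HF75 Week 3) the mean level of 6 immediate-early genes lay between -0.90 and -0.47, while on the other 33 arrays it lay between 4.08 and 5.69. At Week 12 the deposited series table and the array files disagreed on which array is HF5 and which is HF20. The table's HF5 column correlated at 0.663 with the array labelled HF5 and at 0.999 with the array labelled HF20. The array labels are used here. Values with the exchange are given beside the differences that it turned or moved by over 1.5 times.

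The probe sequences show which part of a transcript was read. Each of the following is the 60-base probe of its gene, 5′ to 3′, as the array files give it, and each reads through as coding sequence in 1 frame. Id3, Tgfb1 and Smad6 have no other probe, and the Pmepa1 probe is the dimmer of its pair.
Pmepa1: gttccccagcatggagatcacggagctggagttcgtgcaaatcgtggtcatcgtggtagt
Id3: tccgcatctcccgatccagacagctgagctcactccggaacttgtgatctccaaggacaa
Tgfb1: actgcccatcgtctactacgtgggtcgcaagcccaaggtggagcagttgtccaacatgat
Smad6: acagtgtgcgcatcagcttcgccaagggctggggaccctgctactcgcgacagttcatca

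Of the 9 genes, 5 had a promoter entry in RefSeq (GRCm38.p6). The 250 bases before the start of Id3, Id2 and Id4 are shown because these BMP targets are compared below. Capitals mark GGCGCC, a GC-rich element bound by the BMP Smads, and CAGAC or its complement GTCTG, the core of the Smad box, both searched on both strands. The pair does not overlap in these windows.
Id3, chr4:136143572-136143821, plus strand: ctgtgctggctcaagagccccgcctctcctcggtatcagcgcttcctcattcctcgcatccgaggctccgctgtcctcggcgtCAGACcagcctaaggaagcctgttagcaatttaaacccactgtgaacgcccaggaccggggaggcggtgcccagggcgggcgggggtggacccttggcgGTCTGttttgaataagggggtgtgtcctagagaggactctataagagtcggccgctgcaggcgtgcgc
Id2, chr12:25096093-25096342, minus strand: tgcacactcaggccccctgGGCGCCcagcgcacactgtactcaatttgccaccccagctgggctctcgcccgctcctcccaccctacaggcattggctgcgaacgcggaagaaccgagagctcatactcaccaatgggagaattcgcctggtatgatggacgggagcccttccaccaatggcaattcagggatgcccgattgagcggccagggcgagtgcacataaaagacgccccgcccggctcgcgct
Id4, chr13:48260866-48261115, plus strand: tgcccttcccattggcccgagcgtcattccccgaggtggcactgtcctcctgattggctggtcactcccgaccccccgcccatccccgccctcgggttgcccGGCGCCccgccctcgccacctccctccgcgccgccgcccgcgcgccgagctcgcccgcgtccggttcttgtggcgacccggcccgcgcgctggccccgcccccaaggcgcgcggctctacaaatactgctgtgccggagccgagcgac

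Id3 held 2 copies of the Smad box core and no GGCGCC, and Id2 and Id4 each held 1 GGCGCC and no Smad box core. The windows of Tgfb1 and Smad6, the other members with an entry, held 0 of either. Of 32851 promoter windows of this length, 9.59% held GGCGCC and 42.2% held CAGAC or GTCTG. The palindrome GTCTAGAC was in 0.167% of windows and in none of the 3 shown. A match is a description of letters in the window.

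Pmepa1 stood highest in HFC tissue at Week 3 and came down over the following weeks. The HFC levels were 1.59 at Week 3, 0.98 at Week 6, -0.15 at Week 9, -0.96 at Week 12, -1.49 at Week 15 and -1.30 at Week 18. The LFC levels at the same weeks were -2.58, -0.78, -2.26, -0.79, -2.73 and -2.50. HFC was above LFC in 5 of 6 weeks, by 4.17 at Week 3, where the LFC array is the one with high lymphocyte markers, and the groups overlapped, since the Week 6 and Week 12 LFC arrays lay above 3 of the HFC arrays. The fitted late difference was 1.72 ± 0.37 (SE, 6 weeks), and without Week 3 it was 1.23 ± 0.32. At the early time points HFC was below LFC in 3 of 3 pairs, with HFC levels of -2.42, -1.69 and -1.11 and LFC levels of -1.44, -0.92 and -1.0 at Day 10, Day 14 and Week 0.

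By the brighter Pmepa1 probe the medians of the KAL-1 groups lay between those of LFC and HFC. The late levels spanned -1.60 to -0.35 in HF5 (median -1.26), -2.46 to 0.04 in HF20 (median -1.37) and -1.78 to -0.26 in HF75 (median -1.32). The medians were -2.38 in LFC and -0.55 in HFC. HF5 and HF20 were below HFC in 6 of 6 weeks and HF75 in 5 of 6. The differences from HFC were -0.92 for HF5, -1.08 for HF20 and -0.93 for HF75, each with an SE of 0.37, and at Week 3 alone they were -3.08, -2.79 and -2.35. Without Week 3 they were -0.493, -0.738 and -0.640, each with an SE of 0.316. The 3 doses share the HFC arrays, so these values are not independent of each other.

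**Figure D1:**
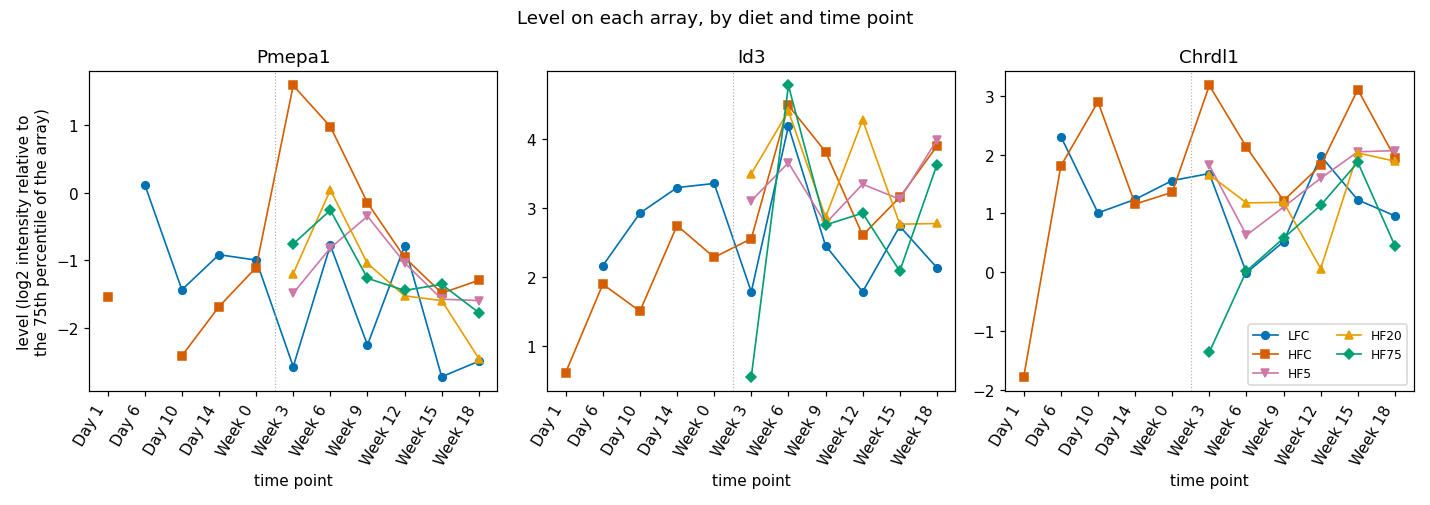
Levels of Pmepa1, Id3 and Chrdl1 (log2 intensity relative to the 75th percentile of the array, vertical axis) at each time point (horizontal axis), 1 point per array, coloured by diet, with a dotted line between early and late time points. Pmepa1 in HFC stands at 1.59 at Week 3 and at -1.30 at Week 18, and Id3 in HFC lies below LFC in the 4 early pairs and above it in the 6 late weeks.

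Both Pmepa1 probes gave the late difference and a similar course in HFC, while their slopes over all diets differed. The coding probe printed above read 0.91 at Week 3, 0.04 at Week 6, -0.30 at Week 9, -1.04 at Week 12, -1.30 at Week 15 and -1.28 at Week 18 in HFC. Its mean late difference between HFC and LFC was 1.38 ± 1.33 (SD over 6 weeks), higher in 5 of 6, against 1.72 ± 1.43 for the brighter probe. The probes correlated at 0.726 over the arrays. At the early time points the coding probe was higher in HFC in 2 of 4 pairs, and its late minus early difference was 1.54, against 2.34 for the brighter probe. Its late medians were -0.67 in HFC, -1.38 in HF20, -1.48 in HF5, -1.80 in LFC and -1.94 in HF75, so by this probe HF75 was not between LFC and HFC.

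Over Week 3 to Week 18 and all 5 diets, Pmepa1 by its brighter probe had a slope of -0.0961 per week ± 0.0242 (SE). These weeks include the HFC arrays that chose Pmepa1, so no test is given. Of 21092 genes, 20 passed in limma at an adjusted p under 0.05 (0.0948%) and 3275 had an unadjusted p under 0.05 (15.5%). Within diets the slope was -0.216 per week in HFC, -0.112 in HF20, -0.0815 in HF75, -0.038 in LFC and -0.0333 in HF5. The coding probe gave -0.0187 ± 0.0217. Without Week 3 the slope of the brighter probe was -0.142 ± 0.0237, and with the week as a random block its SE was 0.032. None of the other 8 genes had an unadjusted p under 0.05 in the change per week. Without Week 3, however, 3 of them passed the adjusted threshold in limma, Tgfb1 at -0.131 per week (adjusted p = 0.0139, and from 0.255 to 1 in its other alternatives), Smad7 at 0.121 (0.0494, others from 0.266) and Id1 at 0.123 (0.0466), and 2894 of all genes did so. The fit without Week 3 counted the arrays of a week as independent, so its adjusted p-values do not measure the spread between weeks. Over all weeks, with the week as a random block, no gene passed. Arrays of a week were in most cases scanned on the same day, so week and scan day cannot be told apart.

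Id3 was lower in HFC than in LFC tissue early and higher late. At Day 6, Day 10, Day 14 and Week 0 the LFC levels were 2.17, 2.93, 3.30 and 3.36 and the HFC levels were 1.90, 1.51, 2.75 and 2.29. HFC was below LFC in 4 of 4 pairs, although the groups overlapped. The early difference was -0.825 ± 0.313 (SE), and it is part of the contrast that chose Id3, so no test is given. Without Day 14 it was -0.919 ± 0.378 and without Week 0 it was -0.745 ± 0.386. At this contrast 0 of 19876 genes passed the adjusted threshold in limma (0%) and 296 had an unadjusted p under 0.05 (1.49%). Of the other 8 genes, 0 had an unadjusted p under 0.05.

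In the late weeks the LFC levels of Id3 spanned 1.79 to 4.19 (median 2.30) and the HFC levels 2.56 to 4.49 (median 3.49). HFC was above LFC in 6 of 6 weeks, by 0.31 at the least and 1.76 at the most, and the late difference was 0.91 ± 0.40. The late difference minus the early one was 1.73 ± 0.40. At this contrast, which chose Id3, 0% of genes passed the adjusted threshold and 375 of 19876 (1.89%) had an unadjusted p under 0.05. Without the 6 arrays with low immediate-early genes, the early difference was -0.81 ± 0.46 from the Day 14 and Week 0 pairs alone, and the late minus early difference was 1.73 ± 0.54, both from the fit of LFC and HFC. The late difference was 0.77 ± 0.35 in the fit of the late weeks with all diets. These values come from different fits, so they do not add up.

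Beside the early Id3 values, the mean of 5 endothelial markers was lower in HFC in 4 of 4 pairs, by -0.74 ± 0.94 (SD), and all 5 genes were lower (0 of 5 higher). Without Day 10 the endothelial value was -0.31 ± 0.45. Smooth muscle and pericyte markers were lower by -0.89 ± 1.23, in 3 of 4 pairs and for 4 of 5 genes, and by -0.29 ± 0.31 without Day 10. Macrophage markers were higher by 1.02 ± 1.28, in 3 of 4 pairs and for 5 of 5 genes, and by 0.56 ± 1.1 without Day 14 and 1.56 ± 0.83 without Day 6. Skeletal muscle markers were higher by 0.65 ± 1.76, in 3 of 4 pairs and for 5 of 5 genes. Without Day 10 that value was 0.2 ± 1.84, and without Day 14 it was 1.49 ± 0.63. Fibroblast and progenitor markers were higher by 0.46 ± 0.93, in 3 of 4 pairs and for 5 of 5 genes, and by 0.17 ± 0.89 without Day 10. Adipocyte markers were higher by 0.54 ± 0.48, in 3 of 4 pairs and for 4 of 5 genes. The immediate-early genes were lower by -1.59 ± 2.56 in 4 of 4 pairs, most at Day 10, where LFC read 4.52 and HFC -0.90, and by -0.31 ± 0.21 without it. Beside the late values, endothelial markers differed by -0.09 ± 1.36 and 7 clock output genes by 1.02 ± 0.86, higher in 5 of 6 weeks. The immediate-early genes were higher by 1.18 ± 2.12, in 5 of 6 weeks and for 6 of 6 genes, and by 0.32 ± 0.45 without Week 12. Skeletal muscle markers were lower by -1.76 ± 3.08, in 5 of 6 weeks and for 5 of 5 genes, and by -0.81 ± 2.21 without Week 9. The part of any of these in the Id3 values was not tested.

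The other Id genes had wide ranges within each diet. Id1, a BMP target of vessel cells and progenitors, ran from 2.25 to 3.68 in early LFC and from 1.59 to 3.04 in early HFC, a difference of -0.72 ± 0.47 (unadjusted p = 0.157 in limma). Its late HFC levels were tight, from 2.20 to 2.88, while HF20 spanned 0.85 to 4.07 and HF75 1.00 to 4.69. Id1 at LFC Week 18, the dimmest array, was 5.11, the highest value of the gene. Id2, which is also a regulator of adipocyte differentiation, ran from -1.74 to 3.04 over the 39 arrays, with group means from 1.02 in early LFC to 1.99 in HF20. In late HFC it read -0.18 at Week 3 and 3.04 at Week 15, and its late difference from LFC was 0.17 ± 0.55 (SE), higher in 3 of 6 weeks, and was 0.760 without Week 3 and -0.315 without Week 12. At early time points its sign differed by probe, 0.18 for the brighter and -0.25 for the other. Id4 had the widest spread, from -2.69 to 3.88, the last on the HF20 array of Week 15, and was lower in early HFC (-1.10, -1.05, 0.58 and 1.68) than in early LFC (-1.73, 1.66, 2.81 and 2.24) in 3 of 4 pairs, by -1.22 ± 0.86 (unadjusted p = 0.186 in limma), and from -1.83 without Day 6 to -0.722 without Day 10. Its highest late level was at Week 15 in each diet except HF5, where it was at Week 3, and HF20 exceeded HFC by 1.17 ± 0.67, in 4 of 6 weeks, and by 0.746 without Week 3.

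**Figure D2:**
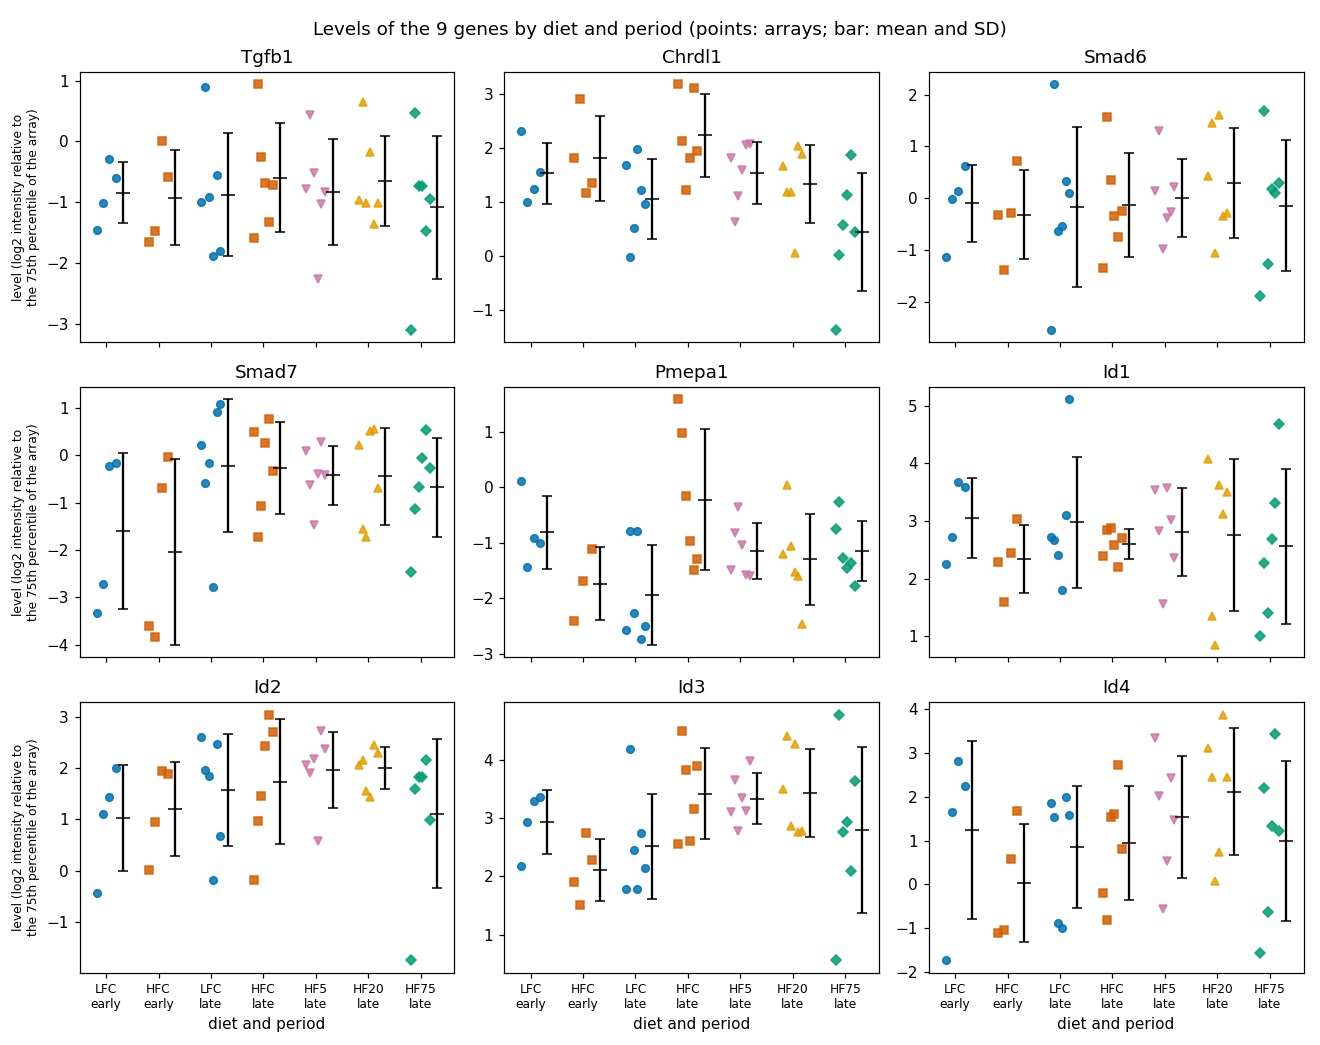
Levels of the 9 genes (log2 intensity relative to the 75th percentile of the array, vertical axis) in each diet and period (horizontal axis), 1 point per array, with the mean and SD of the group in black. The ranges of neighbouring groups overlap in nearly every panel, and the HF75 array of Week 3 is the lowest late point for Tgfb1, Chrdl1, Id2, Id3 and Id4.

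By its brightest probe Chrdl1 was highest in late HFC tissue and lowest with the highest KAL-1 dose. The late levels spanned -0.01 to 1.98 in LFC (median 1.09) and 1.22 to 3.18 in HFC (median 2.04). They ran from 0.63 to 2.07 in HF5, from 0.06 to 2.03 in HF20 and from -1.36 to 1.87 in HF75, with medians of 1.71, 1.42 and 0.51. The order of the means was HFC (2.23 ± 0.77, SD), HF5 (1.54 ± 0.57), HF20 (1.33 ± 0.72), LFC (1.06 ± 0.73) and HF75 (0.45 ± 1.09), and each neighbouring pair in it overlapped. HF75 was below HFC in 6 of 6 weeks, HF20 in 6 of 6 and HF5 in 5 of 6.

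The fitted differences of Chrdl1 from HFC were -0.69 for HF5, -0.90 for HF20 and -1.78 for HF75, each with an SE of 0.415. Without the HF75 array of Week 3, which read -1.36, the HF75 difference was -1.31 ± 0.33. When the HF5 and HF20 labels of Week 12 were swapped, HF5 differed by -0.95 and HF20 by -0.64, so the order of these doses turned. In the late weeks HFC exceeded LFC by 1.17 ± 0.415 (SE), higher in 5 of 6 weeks. In these contrasts, which chose members, no gene passed the adjusted threshold (0% in each), and an unadjusted p under 0.05 was seen for 1.36% of 21092 genes with HF5, 4.22% with HF20, 5.02% with HF75 and 5.06% in late HFC against LFC.

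The second Chrdl1 probe, which the array assigns to another transcript record of the gene, did not put HFC highest. Its late means were 0.78 in HF20, 0.54 in HF5, 0.44 in HFC, 0.41 in LFC and -0.24 in HF75, so HF75 was lowest by both probes. Its mean difference from HFC was 0.10 ± 0.93 (SD, 6 weeks) for HF5, 0.34 ± 1.25 for HF20 and -0.68 ± 1.33 for HF75, the last lower in 5 of 6 weeks, and its late difference between HFC and LFC was 0.03 ± 1.08. Single arrays carried these values. Without Week 15, where the HF20 array read 3.87, the HF20 difference was -0.08 ± 0.79, and without Week 3, where the HF75 array read -2.31, the HF75 difference was -0.19 ± 0.65. The late difference between HFC and LFC was 0.42 without Week 18, where the LFC array read 2.12, and -0.16 without Week 15. With the Week 12 labels exchanged, the HF5 difference was -0.42 ± 0.74 and the HF20 difference 0.85 ± 0.97. The second probe was well above background on 39 arrays and correlated with the brightest at 0.648. A further Chrdl1 probe was well above background on 8 arrays only. The sizes of the Chrdl1 differences above are those of its brightest probe.

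**Figure D3:**
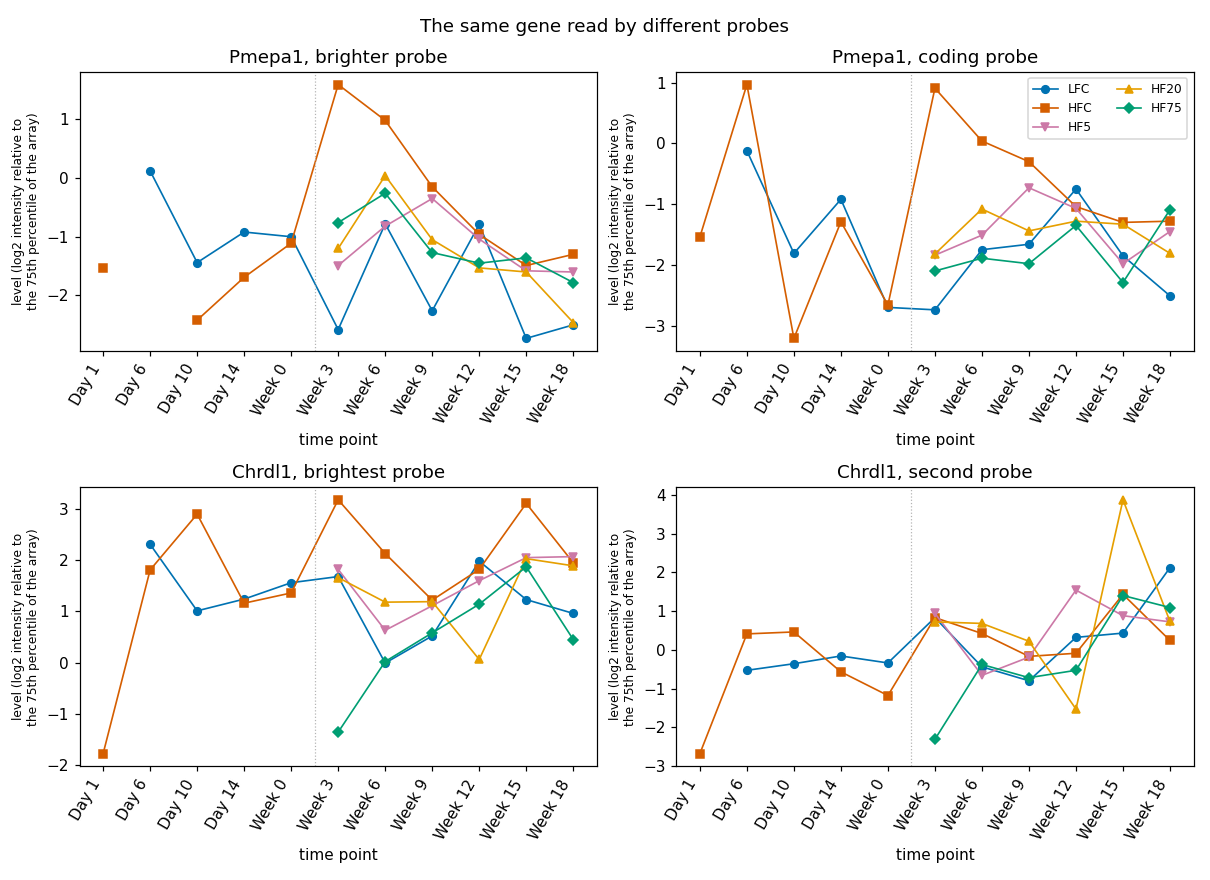
Levels of Pmepa1 (top) and Chrdl1 (bottom) by different probes of the same gene (log2 intensity relative to the 75th percentile of the array, vertical axis) at each time point (horizontal axis), coloured by diet. Both Pmepa1 probes are highest in HFC at Week 3 among the late arrays (1.59 and 0.91), while HFC is not the highest group for the second Chrdl1 probe.

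Marker lists differed in the contrasts of Chrdl1 and Pmepa1 too. The mean of 5 macrophage markers was higher in late HFC than in LFC by 0.77 ± 0.99 (SD), in 4 of 6 weeks and by 0.47 ± 0.74 without Week 18, with levels from 0.67 to 2.86 in HFC and from -0.26 to 1.72 in LFC. It was lower than in HFC by -0.45 ± 1.04 in HF5, -0.85 ± 0.96 in HF20 and -1.22 ± 1.49 in HF75, each lower in 5 of 6 weeks, and the HF5 value was -0.18 ± 0.91 without Week 12 and -0.81 ± 0.62 without Week 9. The HF75 value was -0.83 without Week 3, whose HF75 array stood apart, and -1.66 without Week 9. At an unadjusted p under 0.05 in limma were 3 of 5 macrophage genes with HF75 (5.02% of all genes) and 0 of 5 in the other contrasts here. Lymphocyte markers were lower in late HFC than in LFC by -1.64 ± 3.09, for 5 of 5 genes, and by -0.72 ± 2.36 without Week 3. They were higher than in HFC by 1.54 ± 2.16 in HF20, for 5 of 5 genes, with 1.02 ± 1.96 without Week 9, and differed by 0.93 ± 1.76 in HF5 and 0.12 ± 2.82 in HF75. Without Week 9 the HF5 value was 0.43 and the HF75 value turned to -0.74. The clock output genes, higher in late HFC than in LFC by 1.02 ± 0.86, with 6 of 7 genes at an unadjusted p under 0.05 in limma (5.06% of all genes), were lower than in HFC by -0.52 ± 0.56 in HF5 and -0.54 ± 0.45 in HF75, in 5 of 6 weeks each, and by -0.32 ± 0.51 in HF20, in 3 of 6. The HF20 value was -0.17 without Week 9, and the HF5 value was -0.34 without Week 6. Skeletal muscle markers were higher than in HFC by 2.55 ± 3.00 in HF5, 2.25 ± 2.25 in HF20 and 3.17 ± 4.34 in HF75, in 5 of 6 weeks each. With the Week 12 labels exchanged the HF5 value was 1.42 ± 2.50 and the HF20 value 3.38 ± 2.35. In turn, without Week 3 the HF75 value was 1.63 ± 2.37, and without Week 9 the HF20 value was 1.42 ± 1.09. Of the 5 muscle genes, 2 with HF5, 1 with HF20 and 2 with HF75 had an unadjusted p under 0.05, as did 2 of 6 immediate-early genes in late HFC against LFC. The immediate-early genes were lower in HF75 than in HFC by -1.04 ± 1.87, in 5 of 6 weeks, and by -0.28 ± 0.35 without Week 3. Their part in the gene values was not tested.

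Tgfb1, the ligand, had late medians close to each other, with wide differences in single weeks. Its late medians were -0.96 in LFC, -0.69 in HFC, -0.81 in HF5, -0.99 in HF20 and -0.84 in HF75, and the ranges overlapped. HF75 was below HFC in 6 of 6 weeks, by -0.48 ± 0.36 (SE) and by -0.15 ± 0.32 without the HF75 array of Week 3. Late HFC and LFC differed by 0.28 ± 0.36 (SE), higher in 4 of 6 weeks, with differences of single weeks from -0.77 to 1.2. Early HFC and LFC differed by -0.09 ± 0.37 (unadjusted p = 0.815 in limma).

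The inhibitory Smads had overlapping late ranges in LFC and HFC. Smad6, which mainly blocks BMP receptors, ran from -2.54 to 2.20 in late LFC and from -1.35 to 1.57 in late HFC, with a difference of 0.05 ± 0.43. Its highest level in LFC, HFC, HF5 and HF75 was at Week 6. Smad7, which blocks TGF-beta receptors, ran from -2.77 to 1.09 in late LFC and from -1.73 to 0.76 in late HFC, and differed by -0.05 ± 0.52. At Week 12, where LFC is one of the arrays with low immediate-early genes, HFC was above LFC by 3.03, and without that week the difference was -0.667 ± 0.422, lower in 4 of 5 weeks. Without all arrays with low immediate-early genes it was -0.646 ± 0.265, the only 1 of 22 alternatives with an unadjusted p under 0.05 in limma, and 0 of 22 passed the adjusted threshold. Its early levels were -3.32, -2.71, -0.22 and -0.17 in LFC and -3.61, -3.84, -0.69 and -0.03 in HFC at Day 6, Day 10, Day 14 and Week 0, so both diets were low at Day 6 and Day 10.

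The low Smad7 and Id4 arrays were largely those with low immediate-early genes. On the 6 arrays with an immediate-early mean below 0, Smad7 ran from -3.84 to -2.31 and Id4 from -2.69 to -0.99. On the other 33 arrays Smad7 ran from -2.71 to 1.09, the LFC array of Day 10 being the lowest, and Id4 from -0.89 to 3.88. The 6 arrays also held lower medians of Id3 (1.65 against 3.11), Id1 (1.70 against 2.83), Id2 (-0.30 against 1.95), Smad6 (-1.26 against 0.11) and Tgfb1 (-1.77 against -0.73), while Chrdl1 and Pmepa1 had medians of 1.89 against 1.24 and -0.79 against -1.30. Cell type markers differed on them too. Skeletal muscle markers ran from 1.89 to 7.62 (median 5.30) against -4.85 to 6.48 (median -0.81) on the others, endothelial markers from 0.82 to 2.02 (median 1.94) against 1.83 to 4.93 (median 3.92), and smooth muscle and pericyte markers from 2.35 to 3.19 (median 2.94) against 2.59 to 6.03 (median 4.93). The arrays belong to LFC, HFC and HF75, and the part of these markers in the gene values was not tested.

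**Figure D4:**
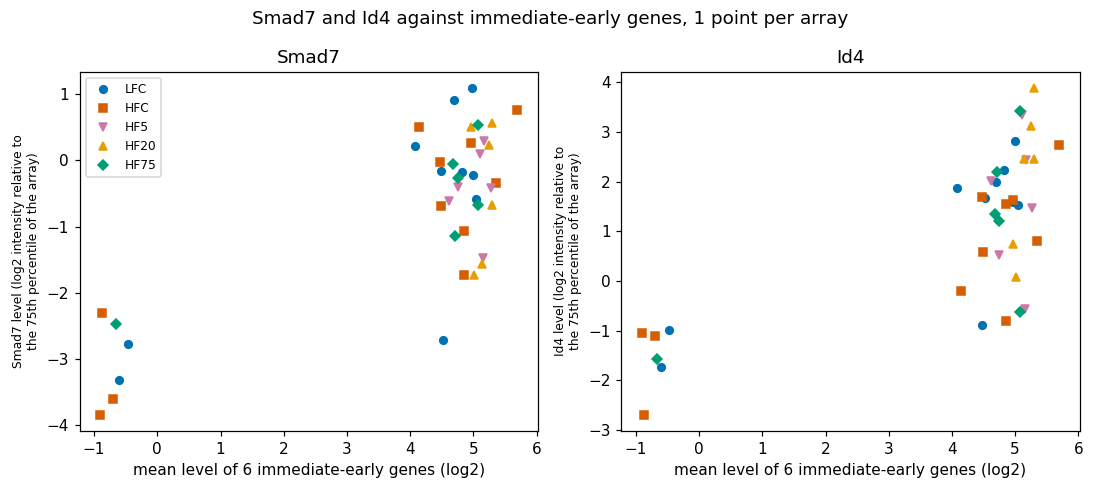
Smad7 (left) and Id4 (right) levels (log2 intensity relative to the 75th percentile of the array, vertical axis) against the mean level of 6 immediate-early genes (horizontal axis, log2), 1 point per array, coloured by diet. The 6 arrays below 0 on the horizontal axis hold Smad7 levels of at most -2.31 and Id4 levels of at most -0.99, and the other 33 arrays lie at 4.08 or above.

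Against LFC, the 3 KAL-1 doses as 1 group differed by 0.74 ± 0.30 (SE) for Pmepa1 and by 0.67 ± 0.32 for Id3, each higher in 5 of 6 weeks. The comparison shares arrays with the contrasts that chose the members, so no test is given for these genes. Chrdl1 differed by 0.05 ± 0.34 and Id4 by 0.70 ± 0.55. In this comparison 0% of 21092 genes passed the adjusted threshold in limma and 3.47% had an unadjusted p under 0.05. By its coding probe Pmepa1 was higher by 0.32 ± 0.56 (SD), in 4 of 6 weeks. Beside these values the immediate-early genes were higher by 0.9 ± 2.2 (SD), in 4 of 6 weeks and for 6 of 6 genes. Clock output genes were higher by 0.56 ± 0.82, in 5 of 6 weeks, and skeletal muscle markers by 0.89 ± 1.41, in 4 of 6. Smooth muscle and pericyte markers were higher by 0.38 ± 0.51, in 4 of 6 weeks. Lymphocyte markers differed by -0.78 ± 1.75, higher in 3 of 6. The part of these markers in the gene values was not tested.

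**Figure D5:**
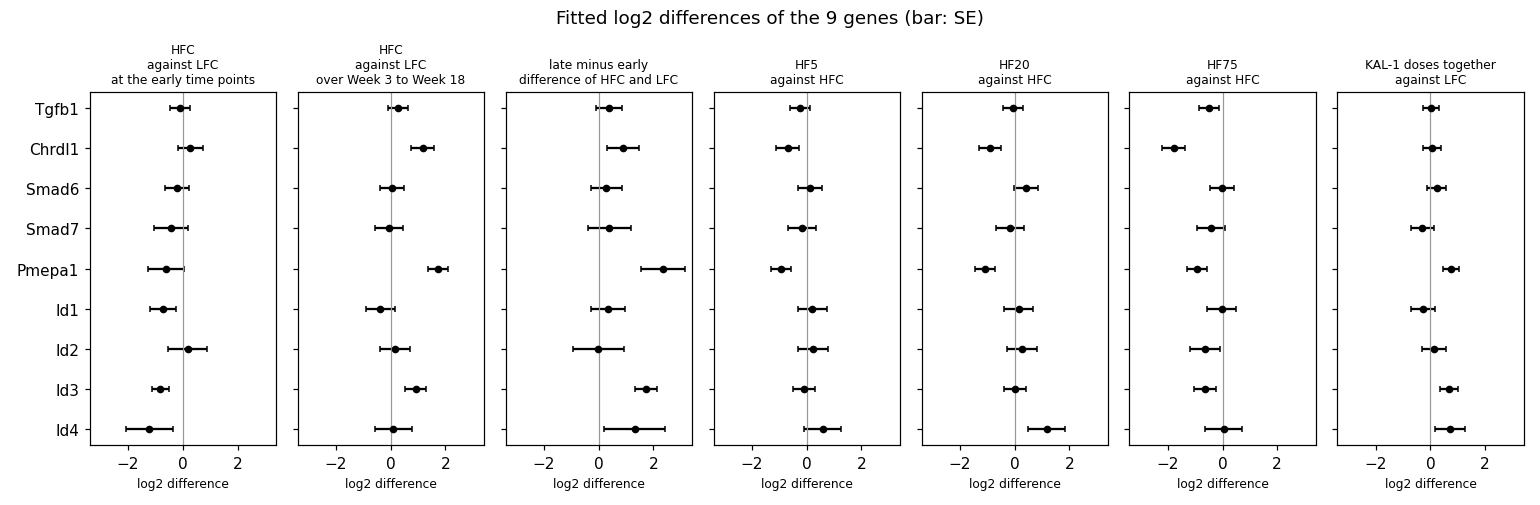
Fitted log2 differences of the 9 genes (vertical axis) in 7 comparisons of diets and periods (panels, horizontal axis in log2 units), with bars of 1 SE. Pmepa1 and Id3 stand furthest to the right in the difference of late and early, at 2.34 (1.54 by the coding probe) and 1.73, and Chrdl1 furthest to the left with HF75, at -1.78.

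Tgfb1, Smad6 and Id3 had their highest means over diets at Week 6 among the late weeks. These means were 0.68, 1.64 and 4.31. The 5 arrays of that week read 0.43 to 0.94 for Tgfb1, and each of the other 34 arrays read 0.01 or less. They read 1.29 to 2.20 for Smad6 and 3.66 to 4.78 for Id3, where single arrays of other weeks reached as high, HF20 at Week 12 reading 1.61 and 4.28. The levels of these genes varied together over the arrays. Among 36 pairs of members, Tgfb1 and Id3 had the highest Pearson r over all arrays (r = 0.805, Spearman rho = 0.684, n = 39). Without the 2 arrays farthest from the Tgfb1 median r was 0.71, and after each time point's mean was taken out it was 0.642. Smad6 and Id3 gave r = 0.793 and the highest rho, 0.746, with r = 0.788 without the 2 farthest arrays and 0.628 within time points. Within time points Tgfb1 and Id2 were highest (r = 0.736). Genes outside the members reached r = 0.904 with Tgfb1 and 0.870 with Id3, so values of this size are not particular to the members. Arrays of a time point are not independent and Id3 was chosen on these arrays, so no test is given. Pmepa1 and Id2 gave the lowest value, r = -0.330.

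The genes most like each key member in level over the 39 arrays were found among 12909 genes well above background on all of them. For Pmepa1 these were Fam20c, a kinase of secreted proteins (r = 0.709), Wrb (0.707) and Galnt2 (0.705). For Chrdl1 they were Atl3 (0.838), the complement factor Cfb (0.808) and Ntrk2 (0.794), which fell to 0.725, 0.617 and 0.724 without the HFC Day 1 and HF75 Week 3 arrays. For Id3 they were Rag1ap1 (0.870), Tenc1 (0.842) and Ephx1 (0.840), and for Id1 they were Tspan13 (0.874), D330050I23Rik (0.865) and the endothelial VEGF receptor Kdr (0.857).

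The other genes of the pathways were read from a list chosen by role. Of 68 listed ligands, receptors, Smads, regulators and targets, 64 were measured in the late fit. In late HFC against LFC, 50 of 64 were higher, with a median of 0.27 against -0.06 over all genes, of which 44.8% were above 0, and 0 passed the adjusted threshold. Without Week 12 it was 39 of 64, with a median of 0.0873. With arrays weighted by quality it was 32 of 64, with a median of 0.0232 against -0.0334 over all genes, so the excess rested on unweighted arrays. With all weeks and no weights, 8 were higher and 1 lower at an unadjusted p under 0.05, against 5.06% of all genes. By role, 12 of 14 ligands, 12 of 12 receptors, 3 of 6 signal-transducing Smads, 7 of 15 extracellular regulators, 7 of 8 intracellular regulators and 9 of 9 targets were above 0. Bmp3, a BMP family member that opposes BMP signalling, was higher by 1.55 ± 0.52 (SE), the activin receptor Acvr2a by 0.955 ± 0.335 and Ltbp3, which binds latent TGF-beta, by 1.08 ± 0.38.

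With HF75 against HFC, 49 of 64 pathway genes were lower, with a median of -0.33 against 0.00 over all genes, of which 50.2% were above 0, and 5 lower and 0 higher had an unadjusted p under 0.05, against 5.02% of all genes. None passed the adjusted threshold. With arrays weighted by quality 37 of 64 were lower, with a median of -0.0764 against -0.0184 over all genes. Without the HF75 array of Week 3, which stood apart from the others, 41 of 64 were lower, with a median of -0.169, and 4 lower had an unadjusted p under 0.05. Bmp3 was lower by -1.82 ± 0.52 and Ltbp3 by -0.97 ± 0.38. Late Bmp3 levels ran from -3.36 to 0.04 in HFC, from -4.36 to -1.84 in LFC and from -4.69 to -3.01 in HF75, so HF75 and HFC overlapped only near the bottom of the HFC range. Bmp3 is named for its small p in this contrast, so the narrow overlap follows in part from that choice and is a description. With HF20, 40 of 64 were above 0 (62.5%, against 55.5% of all genes), and with HF5, 37 of 64 (57.8%, against 50.2%). Without Week 3 these were 30 and 18 of 64. At an unadjusted p under 0.05, 1 gene was higher and 3 were lower with HF20, against 4.22% of all genes. After normexp background correction 33 of 64 were above 0 with HF20, against 60.8% of all genes. There 14 passed the adjusted threshold, as did 7878 of all genes. With HF20, Bmp3 was lower by -1.34 and Ltbp3 by -0.86, and Bmp5, another ligand, was higher by 1.28 ± 0.60. With the Week 12 labels exchanged Bmp3 differed by -0.872 in HF20 and -1.17 in HF5, and 0 genes with HF20 and 2 with HF5, both lower, had an unadjusted p under 0.05. With HF5, Ltbp3 differed by -0.75, Bmp3 by -0.71 and the receptor Tgfbr1 by -0.34, and 0 of 64 genes had an unadjusted p under 0.05, against 1.36% of all genes. All of these share the HFC arrays.

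Early, 40 of 61 pathway genes measured were lower in HFC and 21 were higher, with a median of -0.20 against -0.05 over all genes, of which 45% were above 0. Without Day 10 it was 29 lower and 32 higher. None had an unadjusted p under 0.05, against 1.49% of all genes. Those with the smallest p were the secreted antagonist Sostdc1 (-1.89 ± 1.04), the Notch and BMP target Hey1 (-0.90 ± 0.56) and the endothelial co-receptor Eng (-0.79 ± 0.51). In the late minus early difference 53 of 61 were above 0, against 49% of all genes, 2 had an unadjusted p under 0.05 (1.89% of all genes) and 0 passed, with the TGF-beta activator Thbs1 at 2.37 ± 1.06 and Acvr2a at 1.21 ± 0.58. Without the arrays with low immediate-early genes it was 44 of 62, with a median of 0.327 against 0.559 with them. With arrays weighted by quality it was 40 of 61, with a median of 0.245. KAL-1 against LFC had 51 of 64 above 0, against 46.7% of all genes, with 4 higher and 1 lower at an unadjusted p under 0.05 (3.47% of all genes) and 0 that passed. With arrays weighted by quality 36 of 64 were above 0, with a median of 0.0526 against -0.0174 over all genes. Without weights the smallest p were those of the ligand Bmp2 (1.38 ± 0.49) and the receptors Acvr2a (0.72 ± 0.27) and Acvr1 (0.68 ± 0.26). In the change per week the smallest p were those of the oxidase gene Nox4 (0.10 ± 0.04 per week), the activin subunit Inhbb (0.11 ± 0.04) and Acvr2a (0.06 ± 0.02), and none passed. There 46 of 64 were above 0, against 55.6% of all genes, with a median of 0.0199. Without Week 3 it was 34 of 64, with a median of 0.00379, and 2 passed, as did 2894 of all genes.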

How the data were processed

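Total RNA of subcutaneous adipose was labelled with Cy3 and hybridised to 39 one-colour arrays. Per the file headers, the deposited spot intensity values come from Agilent Feature Extraction 10.5.1.1 (the submitters' processing notes name 9.1), background-subtracted and detrended within the array, with no scaling between arrays, and with other flags for detection, saturation and outliers. The authors' series table holds log2 ratios to the LFC array of the time point, made in GeneSpring GX. It was used as an alternative only. The intensities of the Week 9 arrays were rounded to 3 digits in the files.

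Here log2 intensity minus the array's 75th percentile was used. Outlier-flagged spots were dropped, spots of a probe were averaged, and the brightest probe stood for a gene. Probe coordinates are not given, since no genome of their build was used. Genes well above background on at least 10 (LFC and HFC fit, 20 arrays) or 6 arrays (Week 3 to Week 18, 30 arrays) were tested with limma 3.58.1 in R 4.3.3, two-sided, with the time point of the labels as a block that pairs the diets, Benjamini-Hochberg adjustment and a threshold of 0.05. The change per week had diets as covariates and no block. The code was tested on simulated data. With 1 array for each diet and time point, the error is the spread of diet differences between time points, and the number of arrays limits the precision. Alternatives covered other scalings, filters, probes, blocks and subsets of arrays.

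The members and lists were chosen with earlier results of these data known. Named genes are the 9 members, in each comparison up to 3 genes of the pathway list with the smallest p, and for Id1, Id3, Pmepa1 and Chrdl1 the 3 genes most alike in level. A gene of the pathway list that this rule names is not reported here.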

Additional observations from a re-analysis of the deposited data

Results flagged for a closer look

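Of 62 groups of arrays tested for a far array (9 genes in 7 groups, less Pmepa1 in early HFC), 1 held such an array, while chance gives about 1 in 20. Id2 on the HF75 array of Week 3 read -1.74, against 0.99 for the nearest of the other HF75 arrays. Id3 stood out because HFC lay below LFC in the 4 early pairs, of which Day 14 and Week 0 are the same time on the diet, and above it in the 6 late weeks, with a late minus early difference of 1.73. That contrast chose Id3, so the value is a description.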

How the results depend on the processing

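For the 9 genes in 8 comparisons, 1633 values were recomputed under the alternatives, of which 1579 kept their direction and their side of the threshold or moved by less than the spread. The late difference of Pmepa1 stayed between 1.13 and 2.10 in 23 alternatives, the late minus early difference of Id3 between 1.53 and 2.02 in 23, and the HF75 difference of Chrdl1 between -2.01 and -0.683 in 23, the last value from its second probe. Leaving out the HF75 array of Week 3, leaving out the arrays with low immediate-early genes, the scan day as block and the week as a random block were chosen after seeing the data.

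With the time point block left out (no pairing of the diets), 0 genes passed in each of the 7 diet comparisons, as with the block. The count of genes called was 1 for early HFC against LFC when arrays were weighted by quality, 1 for late HFC against LFC when the slide was a random block, and 7878 with normexp background correction for HF20 against HFC, where normexp moved the median of all genes to 0.349. Normexp also moved that median to -0.208 in late and -0.122 in early HFC against LFC, to -0.112 in their difference and to 0.212 with HF75. For the change per week, 20 genes became 1 with normexp, 3 with no filter, 4 with the mean of all probes, 364 under quality weights, 1 with slides as random blocks, 89 without the arrays with low immediate-early genes and 0 with the week as a random block, and from 0 to 2894 when single weeks were left out, the highest without Week 3. The slide block could not be fitted for the LFC and HFC comparison of early time points. The causes were not tested.

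Of the 1633 values, 146 had the opposite sign to the value reported, for 40 of 72 results and in each of the 8 comparisons. They were most frequent for Id1 (9 of 23) and Smad6 (8 of 22) with HF75 and Tgfb1 (9 of 22) in KAL-1 against LFC, and there were 8 of 24 for Id2 in the late minus early difference and 7 of 22 for Id3 with HF20. None turned for Pmepa1 in any comparison. The values that turned follow for 3 comparisons. For early HFC against LFC, Tgfb1 became 0.161 and Chrdl1 -0.135 without the arrays with low immediate-early genes, Chrdl1 -0.0289 under array quality weights, and Id2 -0.0337 with the mean of all probes and -0.246 with its other probe. Leaving out single time points, Tgfb1 ran from -0.216 to 0.0406, Chrdl1 from -0.257 to 0.540 and Smad6 from -0.569 to 0.158. For KAL-1 against LFC, Tgfb1 became -0.0166 with normexp, -0.0111 with quantile normalization, -0.152 under array quality weights, -0.134 with the slide block, -0.0197 without the arrays with low immediate-early genes and -0.0204 with the scan day as block. Chrdl1 became -0.152 with the mean of all probes, -0.0213 with the scan day and -0.0518 with its second probe, Smad6 -0.198 under array quality weights and Id2 -0.0785 with the scan day. Leaving out single weeks, Tgfb1 ran from -0.150 to 0.174, Chrdl1 from -0.0894 to 0.270, Smad6 from -0.146 to 0.418, Id1 from -0.616 to 0.000615 and Id2 from -0.143 to 0.510. For the change per week, Smad6 became -0.00961 with normexp, -0.0308 under array quality weights, -0.0148 without the HF75 array of Week 3 and -0.0140 without the arrays with low immediate-early genes, and Id3 became -0.00338 with quantile normalization, -0.0252, -0.0239 and -0.0222 under the last 3 of these. Leaving out single weeks, Tgfb1 ran from -0.131 to 0.0176, Smad6 from -0.0906 to 0.0751 and Id3 from -0.0732 to 0.0531.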
